A study of Homo sapiens with 3 samples.

Results

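Transcript levels were described in 1 library of a 3-library RNA sequencing series, the control library from cells without overexpression. The labels name the cells WT HEK293 in one place and HEK 293T in another, and give the genotype as WT with no overexpression. They do not say whether these cells were mock transfected. The other 2 libraries came from the same line overexpressing ADAR2, or ADAR2 with SRSF9, and serve below only to show which detection calls recurred. The series asked how the splicing factor SRSF9 affects RNA editing at ADAR2 sites. The control is a single library, so no value below has a replicate error and no test was made. Its 152878282 reads were counted over 57268 gene identifiers, of which 35910 had at least 1 read and 19263 are protein-coding in the reference annotation.

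HEK293 is an established line made from human embryonic kidney cells by transformation with adenovirus DNA, whose early proteins bind, among others, the retinoblastoma proteins and the p300 coactivators. HEK 293T is a derivative that also carries the large T antigen of SV40, which binds the retinoblastoma proteins. The tissue of the founding cell has long been debated, partly because genes of neurons and of the adrenal gland have been found active beside those of kidney. It is grown worldwide to express foreign genes, so which receptors, channels and cytoskeletal proteins it already makes decides the background of many experiments.

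Levels are given in CPM, the reads of a gene per 1000000 reads of the library, so that 1 CPM stood for 153 reads. The exact Poisson 95% interval was 0.849 to 1.17 CPM at 1 CPM, 9.51 to 10.5 CPM at 10 CPM and 98.4 to 101.6 CPM at 100 CPM. These intervals cover counting error only. A gene with 3 reads or fewer (0.0196 CPM) was called not detected, a floor chosen for counts of 0 (the exact interval of a gene with 0 reads reaches slightly higher, to 0.0241 CPM). Long transcripts collect more reads, so the members of a list were ordered as CPM per kilobase of annotated exon, and a highest value in CPM, where given, is one of reads alone.

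Of the 19263 protein-coding genes, 12789 (66.4%) reached 1 CPM, 9597 (49.8%) reached 10 CPM and 1793 (9.31%) reached 100 CPM. At the other end, 2753 (14.3%) were not detected, and 1926 of these had no read at all. The median protein-coding gene stood at 9.82 CPM, with quartiles of 0.203 and 41.5 CPM. The most populated class was 10 to 100 CPM, with 7804 genes and 30.8% of the reads. Only 91 protein-coding genes reached 1000 CPM, and they took 24.2% of the reads. Of all genes, the 783 highest held 50% of the reads and the 6467 highest held 90%.

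**Figure D1:**
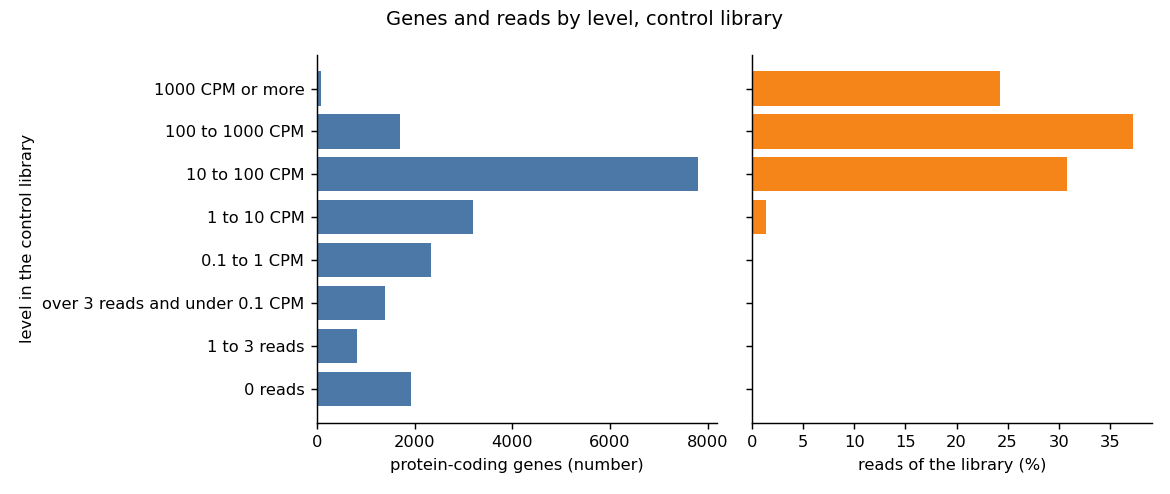
The left bars show how many protein-coding genes fell in each level class of the control library, and the right bars show the percentage of all its reads that each class took. The class of 10 to 100 CPM holds the most genes (7804), while the 91 genes at 1000 CPM or more hold 24.2% of the reads.

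A count of 0 could not always be read as silence. Of 307 protein-coding genes that share 90% or more of their exon bases with another gene on the same strand (and under 10% with one on the opposite strand), 84.4% were not detected, against 14.5% of 14339 genes that share none. Among 66 proteins of complexes that every cell uses (RNA polymerase II, the proteasome core, the CCT chaperonin, mitochondrial import and respiration), 64 reached 1 CPM and the median was 134.3 CPM. EEF1G, a subunit of the translation elongation complex, and TOMM6, a small subunit of the mitochondrial import pore, were listed at 0 reads. Both share all or nearly all exon bases with another annotated gene on the same strand (99.9% for EEF1G and 100% for TOMM6), and none of the 64 others shares 50%. That list was put together after such zeros had been seen. The lists below hold few such genes: 4 of 613 transcription factors, 15 of 1150 receptors and channels, 6 of 429 cytoskeletal genes and 5 of 365 lineage markers share 50% or more.

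The nuclear-encoded gene with the most reads was EEF1A1, the factor that brings aminoacyl-tRNA to the ribosome, with 2108013 reads or 13789 CPM. RPS2, a protein of the small ribosomal subunit, followed at 6825 CPM, and EEF2, which moves the ribosome along the message, at 4959 CPM. Per kilobase RPS2 (2829 CPM per kilobase) stood above EEF1A1 (2318). With mitochondrial genes, pseudogenes and 1 noncoding RNA passed over, the 20 highest genes were EEF1A1, EEF2, 13 ribosomal proteins (RPS2, RPL3, RPL4, RPS6, RPS3, RPS4X, RPL8, RPSA, RPL13A, RPL7A, RPS18, RPL5 and RPLP0), GNB2L1, NPM1, PTMA and 2 hnRNP proteins. The lowest of these 20, RPLP0, stood at 2632 CPM. HNRNPA1 and HNRNPA2B1, which bind nascent RNA and steer splicing, reached 3763 and 2688 CPM. NPM1, the nucleolar chaperone of ribosome assembly, reached 3386 CPM. GNB2L1, a scaffold on the small subunit, reached 3245 CPM. PTMA, which encodes the acidic nuclear protein prothymosin alpha, reached 2690 CPM. Most of these 20 genes thus serve ribosome assembly, translation or the packaging of RNA.

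The 82 ribosomal protein genes together held 12.3% of the reads, and all of them passed 1 CPM, 74 also 100 CPM. The 13 mitochondrially encoded protein genes held 6.85%, led by MT-CO1, a subunit of cytochrome oxidase, at 16006 CPM. Pseudogenes held 3.28% of the reads. Only 3 of them reached 1000 CPM, and EEF1A1P5 and RPS2P5, copies of the 2 nuclear-encoded genes with the most reads, stood at 2696 and 1654 CPM. Reads of such copies and of their parent genes can be split in counting, so their levels are uncertain.

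Beyond translation, the genes at 1000 CPM or more were few. Chaperones were represented by HSP90AB1 (2115 CPM) and HSP90AA1 (1921 CPM), by HSPD1, the mitochondrial chaperonin (1447 CPM), and by HSPA1B, a stress-inducible HSP70 (1252 CPM). HSPA1A, its near-identical copy, stood at 802.8 CPM, and the reads of these copies cannot be told apart with certainty. Nucleolin, encoded by NCL, stood at 1985 CPM. YBX1, which coats messenger RNA, stood at 1353 CPM and PABPC1, which binds the poly(A) tail, at 1364 CPM. PARP1, which marks DNA breaks with poly(ADP-ribose), reached 1235 CPM.

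Glycolysis supplied 6 of the genes above 1000 CPM. The order per kilobase was taken within a list of 18 genes, of aldolases, enolases, lactate dehydrogenases and related enzymes. It was led by GAPDH (588 CPM per kilobase), ENO1 (475) and LDHB (468), followed by ALDOA (408), PGAM1 (245), LDHA (209), PKM (157) and PGK1 (115). TPI1, a glycolytic gene outside that list, stood at 984.5 CPM (364.6 per kilobase). With the longest or the median transcript length in place of the exon union, GAPDH did not lead the list of 18. The isozymes of muscle and brain stood far lower, with ENO3 at 8.43 CPM, ALDOC at 18.4 CPM and PGAM2 not detected, although neuron-specific enolase, ENO2, reached 84.5 CPM. LDHC, the testis form of lactate dehydrogenase, stood at 4.05 CPM. Of the 5 hexokinase genes, HK1 (115 CPM) and HK2 (90.8 CPM) passed 1 CPM. SLC2A1, the common glucose transporter, stood at only 22.1 CPM, and SLC2A8 was the highest of its family per kilobase (4.91 against 4.67), though not with the median transcript length.

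The creatine kinase and carbonic anhydrase genes were uneven in the same way. CKB, the brain form of creatine kinase, stood at 977 CPM, whereas CKM, the muscle form, stood at 0.726 CPM. The mitochondrial forms CKMT1A and CKMT1B, near-identical copies whose reads cannot be told apart with certainty, were at 176 and 189 CPM. CA2, a cytosolic carbonic anhydrase, was at 261 CPM and CA8, an inactive relative, at 119.7 CPM, while CA1, CA4, CA5A and CA6 were not detected.

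Promoter windows of some of these genes are shown because the start of the transcript differed between the classes. Each runs from 40 bases before to 20 bases after the RefSeq start, on the strand of the gene, in GRCh38.p14. Capitals mark TATAAA or TATATA beginning 40 to 20 bases before the start (searched on the strand of the gene alone), and a C at the start followed by at least 4 C or T. The genes were chosen after their values were seen, 5 with a run at the start and 3 without, all above 1000 CPM.
EEF1A1, chr6:73521013-73521072, minus strand: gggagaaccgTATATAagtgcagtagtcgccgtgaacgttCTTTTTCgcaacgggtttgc
EEF2, chr19:3985444-3985503, minus strand: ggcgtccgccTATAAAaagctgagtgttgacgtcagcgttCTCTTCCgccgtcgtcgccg
RPS6, chr9:19380217-19380276, minus strand: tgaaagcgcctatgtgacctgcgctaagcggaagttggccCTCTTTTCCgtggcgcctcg
NPM1, chr5:171387809-171387868, plus strand: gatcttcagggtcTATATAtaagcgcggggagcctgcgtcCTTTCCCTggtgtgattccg
TUBB, chr6:30720312-30720371, plus strand: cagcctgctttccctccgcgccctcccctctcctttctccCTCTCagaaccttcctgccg
ACTG1, chr17:81512780-81512839, minus strand: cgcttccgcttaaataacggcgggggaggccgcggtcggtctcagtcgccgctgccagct
GAPDH, chr12:6535224-6535283, plus strand: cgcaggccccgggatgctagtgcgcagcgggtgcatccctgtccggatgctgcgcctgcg
ENO1, chr1:8878667-8878726, minus strand: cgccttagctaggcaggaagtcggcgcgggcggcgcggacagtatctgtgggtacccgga

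A pyrimidine run that begins with C at the transcript start is the known mark of messages of the translation machinery. It was found in 30 of 66 windows (45.5%) of genes at 1000 CPM or more and in 690 of all 14603 windows (4.73%). The run was found in 42 of the 64 ribosomal protein windows (65.6%). Without these, it was found in 8 of 29 windows (27.6%) at 1000 CPM or more. In the classes from 3 reads or fewer up to 10 to 100 CPM the share lay between 2.49% and 4.53%, and at 100 to 1000 CPM it was 9.62%.

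CpG content followed the level as well. The observed count of CG, divided by the count expected from the C and G content of the window of 300 bases (250 before and 50 after the start), had a median of 0.229 over 1845 genes that were not detected, 0.390 from there to 1 CPM, 0.76 at 1 to 10 CPM, 0.856 at 10 to 100 CPM and 0.902 at 1000 CPM or more. The TATA match was least frequent in the middle. It was found in 13.01% of windows of genes not detected, 1.27% at 10 to 100 CPM and 12.1% (8 of 66) at 1000 CPM or more, beside 4.55% of all windows. Genes of both extremes therefore carried it more often than the bulk of the expressed genes. INS and UMOD, which encode insulin and the urinary protein uromodulin, each had 0 reads and a TATA match. KRT5, a keratin of basal epidermis, also had 0 reads and no match. They are shown beside SIX2, a regulator of kidney precursors at 49 CPM, whose window of 300 bases had a CpG ratio of 0.949, against 0.235 for INS, 0.142 for UMOD and 0.301 for KRT5.
INS, chr11:2161190-2161249, minus strand: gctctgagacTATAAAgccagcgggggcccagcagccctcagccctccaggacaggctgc
UMOD, chr16:20352696-20352755, minus strand: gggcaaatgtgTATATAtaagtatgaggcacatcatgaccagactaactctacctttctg
KRT5, chr12:52520375-52520434, minus strand: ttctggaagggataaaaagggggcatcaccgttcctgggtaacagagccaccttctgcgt
SIX2, chr2:45009433-45009492, minus strand: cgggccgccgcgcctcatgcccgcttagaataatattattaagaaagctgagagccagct

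**Figure D2:**
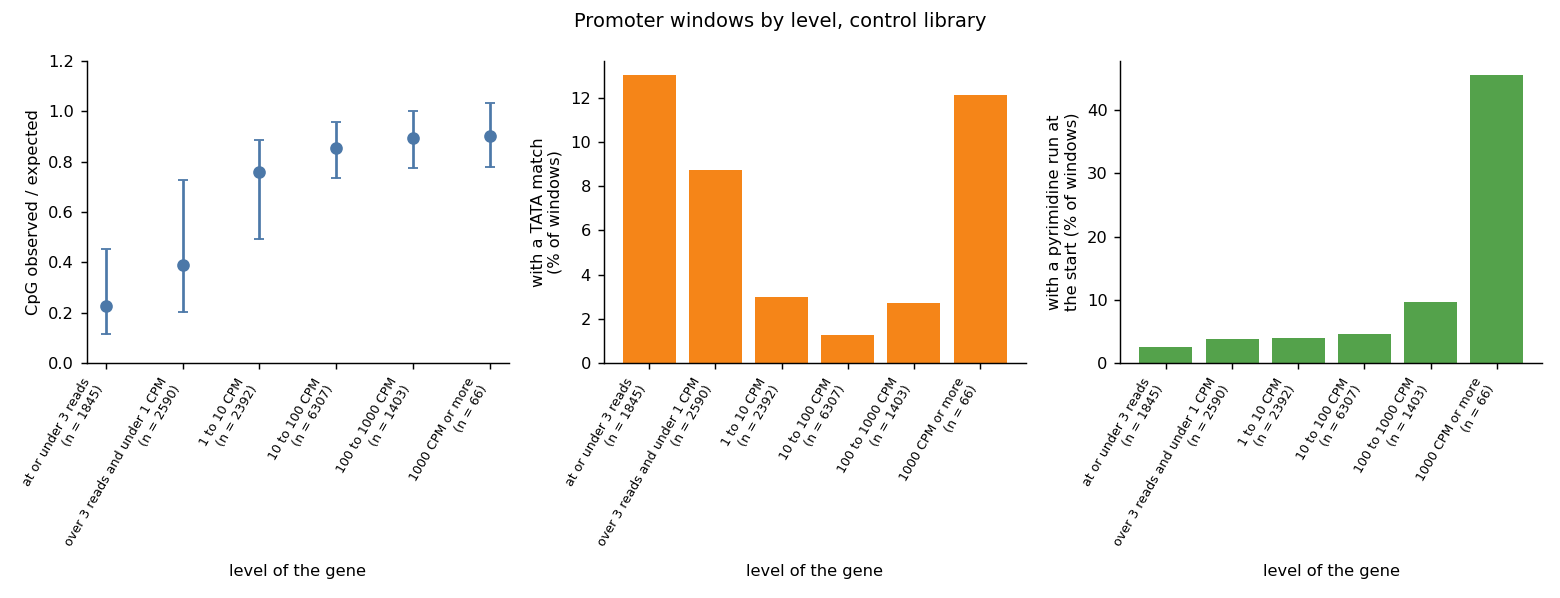
Promoter windows are grouped by the level of their gene in the control library: points give the median CpG ratio with bars over the middle quartiles, and columns give the percentage of windows with a TATA match and with a pyrimidine run at the start. The CpG median is 0.229 in genes not detected and 0.902 at 1000 CPM or more, and the run is found in 45.5% of the highest class.

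Transcription factors reached 1 CPM more often, and 100 CPM less often, than protein-coding genes as a whole. Of 613 factors in 41 family lists, 469 (76.5%) reached 1 CPM and 32 (5.22%) reached 100 CPM, beside 66.4% and 9.31% of all protein-coding genes. Their median was 10.6 CPM, beside 9.82 CPM, and 45 (7.34%) were not detected. All members of 11 lists passed 1 CPM, among them the STAT, SMAD, NF-kB, TEAD, TALE and MYC network lists. The lowest share was in the tissue-specific bHLH list, with 12 of 33 members at 1 CPM and 8 not detected.

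In the list of AP-1, ATF and CREB factors 27 of 29 members reached 1 CPM and 5 reached 100 CPM, with a median of 21.7 CPM. JUN, the core of AP-1, reached 1005 CPM (153580 reads, interval 999.6 to 1010.0), and ATF4, the effector of the integrated stress response, 922 CPM. Per kilobase ATF4 led (367 against 284 for JUN). FOS, the usual partner of JUN, stood at 27.3 CPM and FOSB at 27.5 CPM. XBP1, the factor of the unfolded protein response, came next per kilobase with 139 CPM, and BATF, a lymphoid member, was not detected. MYC stood at 190.1 CPM, MYCL at 7.88 CPM and MYCN at 1.12 CPM, and per kilobase MYC (63.3) was far above MYCL (1.56) and MYCN (0.4299). Its partner MAX was at 41.4 CPM.

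Of the E2F and DP factors, which control entry into the cell cycle, 1 of 11 reached 100 CPM. TFDP1, the shared partner of the E2F proteins, was at 151 CPM, E2F1 at 87.8 CPM and E2F4 at 74.3 CPM, and 10 of the 11 members passed 10 CPM. FOXM1, which drives genes of mitosis, was at 101 CPM. The architectural HMG proteins, which bend or loosen chromatin, all passed 10 CPM, and 7 of 10 passed 100 CPM, with a median of 294.8 CPM. HMGN2 (451 CPM), HMGB2 (466 CPM) and HMGA1 (383 CPM) led per kilobase. HMGA2, a fetal member, was at 85.5 CPM. Among general promoter factors, YY1 stood at 188 CPM, SP1 at 169 CPM and USF1, the highest of its list per kilobase, at 65.2 CPM.

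Developmental regulators of very different territories were found side by side. Among SOX genes, SOX4 (371 CPM) and SOX12 (104 CPM) of the SoxC group stood above the rest, while SOX11, the remaining member of that group, was not detected. SOX2, a factor of neural and pluripotent cells, was at 14.7 CPM and SOX17, of endoderm, was not detected. FOXC1, a mesodermal factor, led its family at 225 CPM, and FOXF2 reached 61.4 CPM. FOXL2, FOXI1 and FOXR2 were not detected. HES4 (206 CPM) and HEY1 (166 CPM), both of the family that Notch signalling switches on, led the HES, HEY and ID list.

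The eye and kidney network of SIX2, a homeobox gene, with its relatives and their EYA and DACH partners was broadly present. Of its 12 members 10 (83.3%) reached 1 CPM, beside 66.4% of all protein-coding genes. SIX2 was at 49 CPM, EYA3 at 89.3 CPM and DACH1 at 42.3 CPM. PAX6, known from eye and brain, led the PAX family at 35.4 CPM, followed by PAX3 (12.1 CPM) and PAX9 (8.76 CPM). PAX2, a kidney regulator, stood at 3.69 CPM. PAX8, its close relative in kidney and thyroid, had only 5 reads (0.0327 CPM, 0.0106 to 0.0763). That is over the floor of 3 reads (0.0196 CPM), but the interval reaches under it. PAX4, of the pancreas, was not detected.

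Several factors known from the nervous system were found, named with their values in view and from lists of mixed shares (8 of 15 POU factors and 12 of 33 tissue-specific bHLH factors at 1 CPM). ZIC2 was at 108 CPM and ZIC5 at 37.4 CPM, whereas ZIC4 was not detected. POU4F1, a regulator of sensory neurons, was at 91.7 CPM and POU3F2, a brain factor, at 55.6 CPM, with POU3F4 and POU5F2 not detected. EN2, of the midbrain and hindbrain boundary, led the remaining homeobox genes per kilobase with 64.2 CPM. DLX2, of forebrain and jaw, was at 43.8 CPM and ISL1, of motor neurons, at 12.98 CPM. The proneural bHLH gene NEUROD6 and the myogenic genes MYF5, MYF6 and MYOG were not detected.

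The 39 HOX genes, which set position along the body axis, were mostly present, with 33 (84.6%) at 1 CPM, 26 at 10 CPM and none at 3 reads or fewer. The shares of all protein-coding genes were 66.4%, 49.8% and 14.3%. HOXB9 (248 CPM), HOXD13 (99.2 CPM) and HOXA5 (44.7 CPM) were highest per kilobase. Of these genes 3 share 50% or more of their exon bases with a neighbour, so reads within a cluster may be mixed.

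Nuclear receptors were led per kilobase by the orphan receptors NR2F2 (129 CPM), NR2F6 (53.3 CPM) and NR2F1 (75.6 CPM). Of 48 members 40 (83.3%) reached 1 CPM, beside 66.4% of all protein-coding genes. The glucocorticoid receptor NR3C1 was at 23.1 CPM and PPARG, of fat cells, at 32.01 CPM. HNF4A, NR0B1 and NR1H4, factors of liver, adrenal gland and bile acid sensing, were not detected. TP73 stood at 13.6 CPM, while TP63, of stratified epithelium, was not detected. Among GATA factors, GATA2 (26.4 CPM), GATA4 (23.97 CPM) and GATA6 (13.3 CPM) were highest per kilobase. Of the interferon regulatory factors, IRF3 stood at 93.03 CPM, and each of the others under 10 CPM.

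A list of 13 genes was chosen around the proteins of adenovirus and of SV40 large T, and not all of them are binding partners. Each of the 13 passed 10 CPM, beside 49.8% of all protein-coding genes. RB1 was at 31.95 CPM, RBL1 at 27.8 CPM and RBL2 at 81.6 CPM, and per kilobase RB1 (4.95) and RBL1 (4.68) were the lower members of the retinoblastoma family (RBL2, 11.1). EP300 and CREBBP, coactivators that acetylate histones, were at 87.7 and 60.5 CPM. CDKN2A, which encodes p16 and ARF, reached 201 CPM and led the list per kilobase. The viral transcripts themselves were not analysed here.

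**Figure D3:**
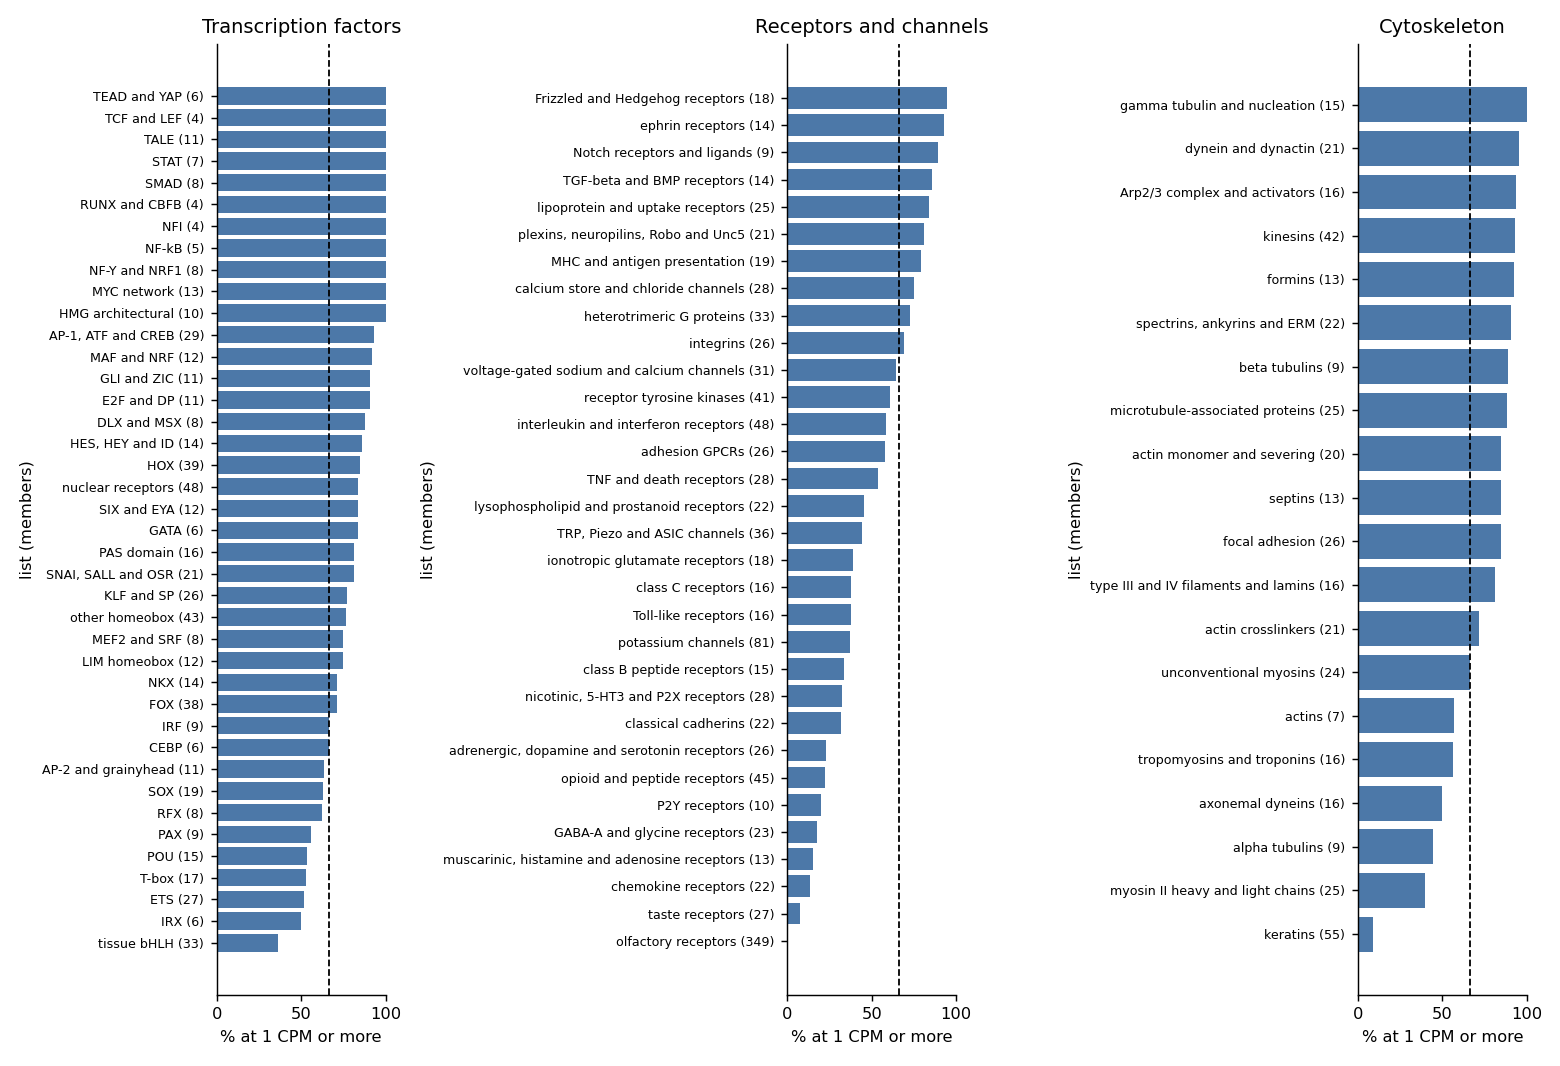
Bars give the percentage of members at 1 CPM or more for family lists of transcription factors, receptors and channels, and cytoskeletal genes in the control library, with the number of members in parentheses and a dashed line at the 66.4% of all protein-coding genes. Frizzled and Hedgehog, ephrin, Notch and TGF-beta receptors lie to the right of the line, and olfactory receptors (2 of 349) and keratins (5 of 55) far to its left. A list of transcription factors and one of GTPases are not drawn.

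With olfactory and taste receptors counted, receptors and channels had the smallest share of expressed members of the 4 groups. Of 1150 genes in 32 lists, 396 (34.4%) reached 1 CPM and 430 (37.4%) were not detected, beside 66.4% and 14.3% of all protein-coding genes. Olfactory receptors made up much of this, with 2 of 349 at 1 CPM (OR2B6 at 1.53 CPM and OR2H2 at 1.09 CPM) and 318 not detected. Without olfactory and taste receptors, 392 of 774 (50.6%) reached 1 CPM, above the 37.0% of lineage markers, and the median was 1.09 CPM. Only 15 passed 100 CPM. The highest CPM was that of GNAS (930.4 CPM), which encodes the G protein alpha subunit that stimulates adenylyl cyclase and is a transducer, not a receptor.

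Receptors of developmental signals were the best represented. All but 1 of 18 Frizzled and Hedgehog receptor genes reached 1 CPM, with SMO, the Hedgehog signal transducer, at 68.6 CPM, the Wnt coreceptor LRP5 at 60.01 CPM and FZD2 at 18.1 CPM. NOTCH2 stood at 153 CPM, and its ligands JAG2 and DLL1 at 59.03 and 29.3 CPM. The activin receptor ACVR2B was at 133 CPM and ACVR1B at 40.7 CPM. TGFBR1 was at 36.3 CPM but TGFBR2, the receptor that binds TGF-beta first, only at 3.31 CPM. ROBO1, an axon guidance receptor, reached 162 CPM, PLXNB2, a semaphorin receptor, 77.1 CPM, and DCC was not detected.

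Among 55 receptor tyrosine kinases with the ephrin receptors, 38 (69.1%) reached 1 CPM, near the 66.4% of all protein-coding genes. Only the pseudokinase PTK7 passed 100 CPM (103 CPM). FGFR3 (47.9 CPM) and FLT4 (71.4 CPM), a receptor known from lymphatic endothelium, came next per kilobase among the kinases. The epidermal growth factor receptor EGFR stood at 23.1 CPM and ERBB2 at 53.1 CPM. ALK and MUSK were not detected. EPHB4 (62.8 CPM), EPHA2 (23.99 CPM) and EPHA7 (39.9 CPM) led the ephrin receptors.

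G protein-coupled receptors for small transmitters, lipids, peptides and chemokines were weak, with 38 of 153 genes in 7 lists at 1 CPM, none at 100 CPM and a median of 0.177 CPM. The highest CPM was that of F2R, a thrombin receptor, at 32.2 CPM. Beside it were the lysophosphatidic acid receptor LPAR3 (28.2 CPM), the ATP receptor P2RY1 (20.8 CPM), the trypsin receptor F2RL1 (19.8 CPM), the adrenergic receptor ADRA2C (18.8 CPM), the neuropeptide receptor ADCYAP1R1 (18.8 CPM), the adenosine receptor ADORA2B (15.1 CPM) and the chemokine receptor CXCR4 (15.2 CPM). P2RY11 (3.87 per kilobase) and P2RY1 (3.09) led the P2Y receptors, and P2RY2 stood at 0.602 CPM. Receptors not detected included the serotonin receptors HTR1A, HTR1E and HTR4, the dopamine receptor DRD5, the muscarinic receptor CHRM2, the opioid receptors OPRM1 and OPRK1, the vasopressin receptor AVPR2, GLP1R and 10 of 22 chemokine receptors. Of the G protein genes that such receptors act through, 24 of 33 (72.7%) reached 1 CPM, near the 66.4% of all protein-coding genes, and GNB1 stood at 343 CPM and GNG5 at 79.6 CPM.

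Potassium channels, TRP, Piezo and ASIC channels and ligand-gated channels were mostly under 1 CPM. Of the voltage-gated sodium and calcium channel genes, 20 of 31 (64.5%) reached it, near the 66.4% of all protein-coding genes. Their median was 2.54 CPM, beside 9.82 CPM. Of 81 potassium channel genes, 30 reached 1 CPM, and KCNJ11 (19.3 CPM), KCNJ8 (9.21 CPM) and KCNG1 (17.6 CPM) led per kilobase. ASIC1, an acid-sensing cation channel, stood higher at 73.9 CPM, and PIEZO1, which opens on membrane stretch, at 60.7 CPM. CACNA1H, a low-voltage calcium channel, was at 41.5 CPM. Channels and transporters of the calcium store and of chloride were more complete, with 21 of 28 genes (75%) at 1 CPM. Among them were CLCN3 (65.5 CPM), ITPR3 (73.5 CPM) and LRRC8A (32.8 CPM), a subunit of the volume-regulated anion channel. Ligand-gated channels of synapses were sparse. Only 4 of 23 GABA-A and glycine receptor genes reached 1 CPM, led per kilobase by GLRB (2.14), a glycine receptor subunit. Ionotropic glutamate receptors had 7 of 18 at 1 CPM, and nicotinic, 5-HT3 and P2X receptors 9 of 28.

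Immune receptors were present in part. The interferon gamma receptor genes IFNGR1 and IFNGR2 were at 40.4 and 31.7 CPM, and IL13RA1 at 44.6 CPM, while IL2RA and IL7R were not detected. TNFRSF10B, a death receptor for TRAIL, reached 74.9 CPM. Of the Toll-like receptor list, only UNC93B1 (15.5 CPM), which escorts these receptors to endosomes, reached 10 CPM, the adaptor MYD88 was at 7.24 CPM, and TLR4, TLR7 and TLR8 were not detected. MHC class I genes were clearly expressed, with HLA-C at 216 CPM and HLA-B at 97.96 CPM. These genes are polymorphic and resemble each other, so their levels depend on alignment. Interleukin and interferon genes themselves were nearly silent, with 4 of 35 at 1 CPM, the highest per kilobase being IL23A (2.07 CPM).

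Adhesion and uptake receptors included several of the 15 genes above 100 CPM. The integrin subunit ITGB1 was at 119 CPM and its alpha partners were lower, with ITGAV at 36.8 CPM and ITGA5 at 34.5 CPM. CDH2, N-cadherin, stood at 67.5 CPM, CDH24 at 11.7 CPM and CDH1, E-cadherin, at 6.07 CPM, and CDH5, of endothelium, was not detected. The transferrin receptor TFRC (163 CPM), the complement regulator CD46 (166 CPM) and the mannose phosphate receptor M6PR (53.1 CPM) led the uptake receptors per kilobase.

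Cytoskeletal genes had the largest share of abundant members of the 4 groups. Of 429 genes in 21 lists, 299 (69.7%) reached 1 CPM and 95 (22.1%) reached 100 CPM, beside 66.4% and 9.31% of all protein-coding genes. The median was 20.3 CPM, and 47 (10.96%) were not detected. In the Arp2/3 list 8 of 16 members reached 100 CPM, in that of gamma tubulin and nucleation 7 of 15, and in that of dynein and dynactin 8 of 21.

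Actin transcripts came almost wholly from the cytoplasmic genes. ACTG1, gamma-actin, stood at 2449 CPM and ACTB, beta-actin, at 754 CPM, and per kilobase they were at 818 and 214. The order of ACTG1 and ACTB was the same with the longest and the median transcript length. ACTA2 of smooth muscle was at 3.27 CPM and ACTA1 of skeletal muscle at 1.45 CPM, and the remaining 3 actin genes were under 1 CPM. Monomer-binding and severing proteins were led per kilobase by TMSB10 (341 CPM), PFN1 (439.7 CPM) and CFL1 (458 CPM). TMSB4X, the thymosin that dominates many other cells, was at 41.8 CPM. PLS3, a bundling protein, reached 614 CPM, and its leukocyte relative LCP1 1.15 CPM. RHOA (647 CPM), RHOB (346 CPM) and RAC3 (163 CPM) led the small GTPases of the cytoskeleton per kilobase, and RAC1 was at 244 CPM.

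Beta-tubulin was mainly TUBB at 1376 CPM (409.7 per kilobase), followed by TUBB4B (399.6 CPM), TUBB2B (232 CPM), TUBB2A (130.3 CPM), TUBB6 (63.3 CPM) and TUBB4A (34.2 CPM), in the same order per kilobase. TUBB3, the neuronal isotype often used as a marker, had 98 reads (0.641 CPM). That row shares 35.8% of its exon bases on the same strand with another gene, so its reads may be mixed or split. A further row of the same symbol, which shares all of its exon bases with another gene, had 0. TUBB1 and TUBB8 were at 1.92 and 1.05 CPM. Among alpha-tubulins, TUBA1B (309 CPM), TUBA1A (279.9 CPM) and TUBA1C (359 CPM) lay close together per kilobase, at 86.6, 81.8 and 77.5, and their order changed with the transcript length used. These genes are also similar in sequence. TUBA4A was at 7.496 CPM, and TUBA3C and TUBAL3 were not detected. TUBG1, the gamma-tubulin of centrosomes, was at 192 CPM, and all 15 genes of its nucleation list passed 10 CPM.

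Intermediate filament genes showed a mixed pattern. LMNB2 (305 CPM) and LMNB1 (197 CPM), the B-type lamins of the nuclear lamina, stood above LMNA (62.9 CPM) also per kilobase (56.1 and 54.3 against 9.01). Vimentin, VIM, of mesenchymal cells, was at 287 CPM, and NEFM, a neurofilament subunit of neurons, at 303 CPM. Per kilobase NEFM, LMNB2, VIM and LMNB1 lay between 69.04 and 54.3, and NEFM did not lead with other transcript lengths. NEFL was at 69.3 CPM, INA at 22.5 CPM and NEFH, the heavy subunit, at 0.903 CPM. Of 55 keratins, 5 reached 1 CPM, KRT10 (32.4 CPM), KRT8 (21.8 CPM), KRT18 (16.1 CPM), KRT222 (1.41 CPM) and KRT13 (1.38 CPM), and 29 were not detected.

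Kinesins, motors that walk along or take apart microtubules, were nearly all present. Of 42 kinesin genes, 39 (92.9%) reached 1 CPM and 9 reached 100 CPM, beside 66.4% and 9.31% of all protein-coding genes. KIF22 (189 CPM), KIFC1 (125 CPM) and KIF2C (109 CPM), all known from the mitotic spindle, led per kilobase. With the median transcript length KIF1C, a transport motor (152 CPM), led instead. KIF2B was not detected. DYNLL1, a dynein light chain, was at 158 CPM. Of the dynein and dynactin genes 20 of 21 (95.2%) reached 1 CPM, whereas dyneins of cilia reached it in 8 of 16 (50%). The nonmuscle myosins MYH9 and MYH10 were at 296 and 246 CPM. MYL6, MYL12B and MYL12A, their light chains, were at 177, 74.4 and 41.2 CPM, and MYL9, the smooth muscle form, was not detected. MAPRE1, TPX2 and STMN1, which bind microtubule ends, the spindle and free tubulin, stood at 187, 239.8 and 349 CPM.

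Septins, filament-forming GTPases, needed a correction of names. A spreadsheet had turned the symbols of 29 genes of the deposited counts into dates, 28 of them named in the reference and 13 of these septins. By identifier, SEPT2 was at 335 CPM, SEPT8 at 139 CPM, SEPT9 at 134 CPM, SEPT11 at 124 CPM and SEPT7 at 116 CPM, and 11 of the 13 reached 1 CPM. Under the deposited symbols none of these genes would have been found by name.

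**Figure D4:**
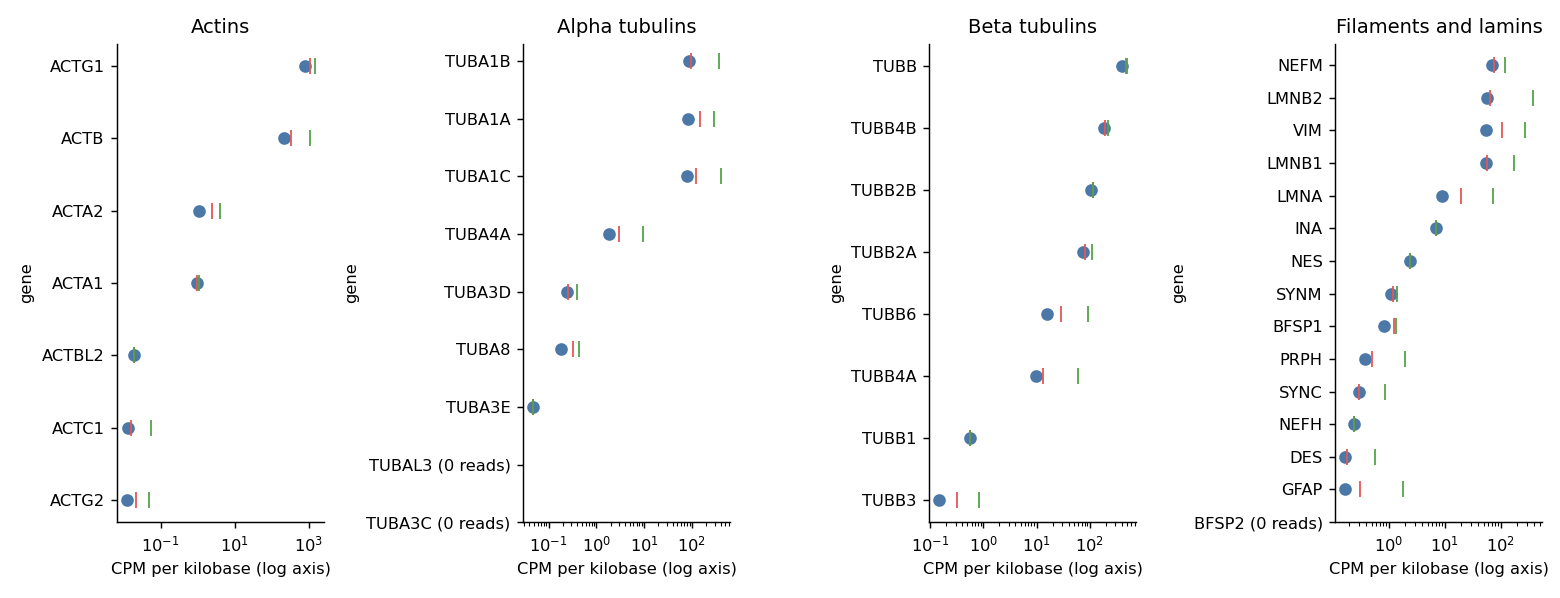
Dots give the level per kilobase of annotated exon for actin, tubulin and intermediate filament genes in the control library on a log axis, and ticks give it with the longest (red) and the median (green) transcript length. ACTG1 and ACTB stand apart from the other actins and TUBB leads the beta-tubulins, while the dots of TUBA1A, TUBA1B and TUBA1C nearly coincide. Genes without a length in the reference (NEFL and TUBB8) are not drawn.

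Lineage markers were mostly low. Of 365 genes in 30 lists, 135 (37.0%) reached 1 CPM, 62 reached 10 CPM and 3 reached 100 CPM, beside 66.4%, 49.8% and 9.31% of all protein-coding genes, and the median was 0.353 CPM. The 3 genes at 100 CPM were NEFM, UCHL1 and IGF2BP1, with 69.0, 62.4 and 26.4 CPM per kilobase. The shares differed between DNA-binding regulators, taken as those also in a transcription factor list, and the other markers. Of 72 regulators, 41 (56.9%) reached 1 CPM with a median of 2.13 CPM, and of 293 other markers 94 (32.1%) with a median of 0.229 CPM, so both shares lay under the 66.4% of all protein-coding genes. This division was made with the values known and is a description only.

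Kidney lists differed in their shares at 1 CPM, beside 66.4% of all protein-coding genes. The nephron progenitor list had 75%, the ureteric bud list 81.8% and the podocyte list 66.7%. The nephron progenitor list had 9 of 12 genes at 1 CPM and none undetected, with SIX2 (49 CPM) and CITED1 (11.7 CPM) among the 3 highest per kilobase. WT1, which is kept on in podocytes, was at 6.35 CPM. The ureteric bud list had 9 of 11, led by TFAP2A (90.3 CPM), GATA2 (26.4 CPM) and SOX9 (13.3 CPM), with the receptor RET at 5.51 CPM. Of the early renal stroma list 3 of 7 reached 1 CPM and 2 were not detected. Among lists of the finished nephron the podocyte list had 6 of 9 genes at 1 CPM, the proximal tubule list 6 of 14, and the loop and distal tubule list and the collecting duct list 2 of 10 each. UMOD, CLDN16 and TFAP2B of the loop and distal tubule, SCNN1G, FOXI1 and ELF5 of the collecting duct list, and SLC22A6 of the proximal tubule were not detected. LRP2, the megalin of proximal tubule, was at 39.1 CPM, and CD2AP (45.99 CPM) and PODXL (37.4 CPM), which podocytes share with other cells, were also present. The medians were 5.02 CPM in the nephron progenitor list and 8.92 CPM in the ureteric bud list, against 0.373 CPM in the proximal tubule list, 0.0687 CPM in the loop and distal tubule list and 0.0785 CPM in the collecting duct list. All lay under the 9.82 CPM of all protein-coding genes. DNA-binding regulators were 11 of 12 genes of the first list and 8 of 11 of the second, but 1 of 14, 2 of 10 and 2 of 10 of the others. Kidney stage and the make-up of the lists therefore cannot be told apart.

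The adrenal cortex list had 2 of 14 genes at 1 CPM, FDXR (40.6 CPM) and FDX1 (28.04 CPM), which serve mitochondrial iron-sulphur and steroid enzymes in many tissues. NR5A1, the regulator of steroid-making cells, was at 0.87 CPM, and CYP11B1, CYP11B2 and NR0B1 were not detected. Of 15 adrenal medulla and sympathetic genes, 4 reached 1 CPM, and SLC18A2, a vesicular amine transporter, was the highest per kilobase (12.8 CPM). Noradrenaline transporter SLC6A2 was not detected.

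Of the neuronal markers 14 of 21 (66.7%) reached 1 CPM, the share of all protein-coding genes (66.4%), and 9 reached 10 CPM (49.8% of all). NEFM (303 CPM), UCHL1 (142 CPM), a ubiquitin hydrolase of neurons, and ENO2 (84.5 CPM) led per kilobase. SYP, a synaptic vesicle protein, was at 16.3 CPM and MAPT, the microtubule protein tau, at 37.4 CPM. SNAP25, of the synaptic release machinery, was at 1.16 CPM, RBFOX3, the antigen NeuN, at 3.44 CPM, and ELAVL4, an RNA-binding protein of neurons, was not detected. Per kilobase NEFM (69.04), UCHL1 (62.4) and ENO2 (19.7) stood above the synaptic genes SYP (3.13) and SNAP25 (0.347). Glial markers were led by SLC1A3 (33.6 CPM).

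Regulators and other markers of a lineage did not always go together. Of the cardiac list, NKX2-5 (31.4 CPM), HAND1 (28.8 CPM) and GATA4 (23.97 CPM) were highest per kilobase, 2 of the 9 other markers reached 1 CPM, and TBX5 and PLN, a calcium pump regulator, were not detected. CDX2, the intestinal regulator, stood at 27.5 CPM, while 1 of the 2 intestinal regulators was not detected, 3 of the 7 intestinal products reached 1 CPM, and SI and FABP2 were not detected. NKX2-1, of lung and thyroid, was at 8.11 CPM, and the airway secretory gene SCGB1A1 was not detected. NKX6-1 and PDX1 of the pancreas were at 12.1 and 4.997 CPM, and none of the 7 pancreatic products reached 1 CPM, with INS, CPA1, CELA3A and PRSS1 not detected. The reverse was seen in 9 lists, where no regulator reached 1 CPM but some other markers did. In 7 of them, each with 1 regulator, the other markers at 1 CPM were 5 of 8 (smooth muscle), 6 of 15 (simple epithelium), 6 of 13 (proximal tubule), 3 of 13 (stratified epithelium), 3 of 15 (leukocyte), 2 of 10 (endothelium) and 2 of 12 (hepatocyte). The collecting duct and adrenal cortex lists have 2 regulators each, with 2 of 8 and 2 of 12 other markers at 1 CPM.

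**Figure D5:**
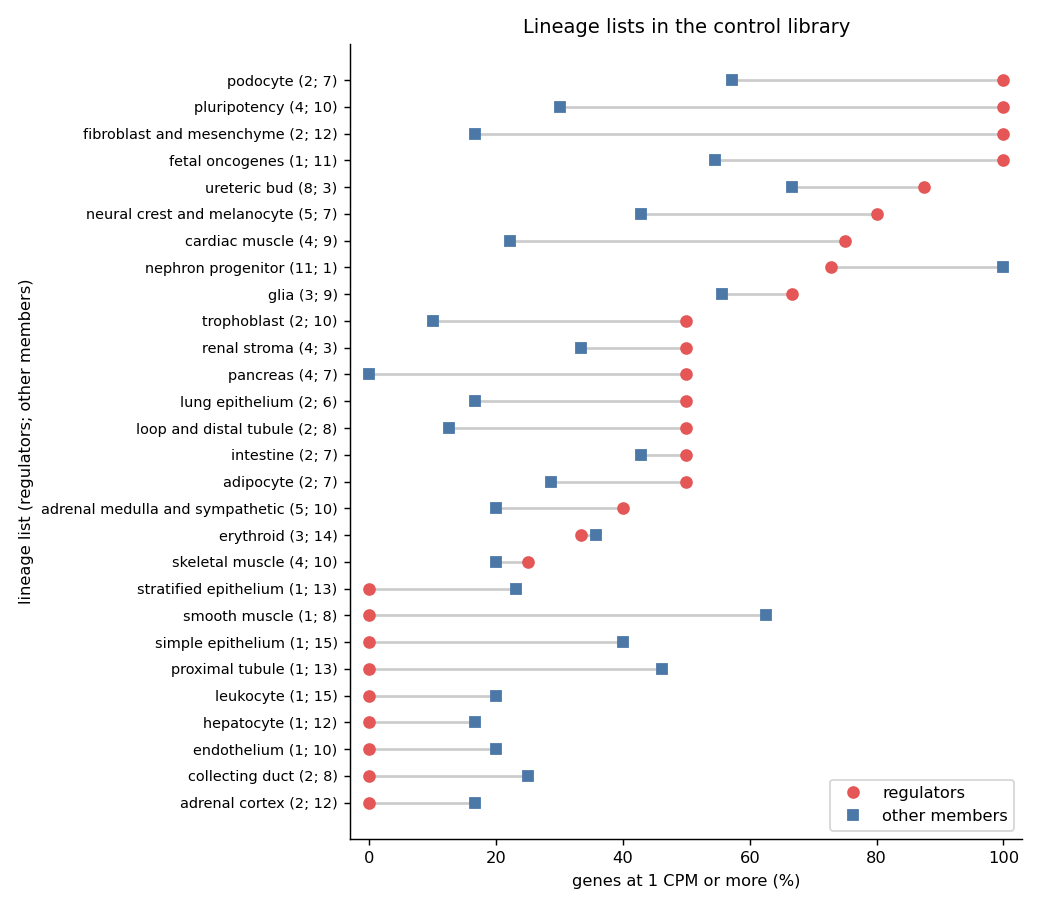
For each lineage list of the control library, the red dot gives the percentage of regulators and the blue square that of the other markers at 1 CPM or more, with the numbers of both in parentheses. In the pancreas list 50% of 4 regulators and none of 7 other markers reach 1 CPM, whereas 9 lists, 7 of them with a single regulator, have no regulator at 1 CPM and lie the other way round.

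Lists of blood, vessels, skin, liver and skeletal muscle had few genes at 1 CPM. Members at 10 CPM or more were found in those of vessels, skin and skeletal muscle, and in none of blood or liver. The leukocyte list had 3 of 16 genes at 1 CPM, and CD3D, CD3E, CD3G, MS4A1 and LYZ were not detected. Of the endothelial list, FLT1 (11.2 CPM) and ESAM (2.37 CPM) reached 1 CPM, and CDH5, EMCN and ERG were not detected. Stratified epithelium was represented by KRT10 (32.4 CPM), DSC3, a desmosomal cadherin (52.7 CPM), and KRT13, while KRT1, KRT4, KRT5, LOR and IVL were not detected. In the simple epithelium list ESRP2, an epithelial splicing regulator, stood at 23.04 CPM and EPCAM at 2.63 CPM, and KRT7 and KRT20 were not detected. Of 13 hepatocyte genes 2 reached 1 CPM, and SERPINA1, TTR, FGB, APOB and HNF4A were not detected. The erythroid list had 6 of 17 genes at 1 CPM. Globin genes gave low values, HBA1 5.11 CPM and HBD 3.73 CPM, and HBG1 and AHSP were not detected. Of 14 skeletal muscle genes 3 reached 1 CPM, with MYH3, an embryonic myosin, at 12.1 CPM and MYOG and MYF5 not detected. The smooth muscle list stood higher, with 5 of 9 genes at 1 CPM and a median of 2.18 CPM.

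Of the fetal oncogene list 7 of 12 genes (58.3%) reached 1 CPM, under the 66.4% of all protein-coding genes, and 1 was not detected. IGF2BP1, an RNA-binding protein of fetal tissue, stood at 241 CPM, GPC3, a fetal glypican, at 49.1 CPM and IGF2BP2 at 59.8 CPM. LIN28B, which blocks let-7 maturation, was at 73.8 CPM and DNMT3B, a de novo DNA methyltransferase, at 39.7 CPM. POU5F1, the core pluripotency factor, stood at 1.05 CPM and NANOG, ZFP42, TDGF1, DPPA4 and PRDM14 were not detected. Among germ cell and cancer-testis genes PRAME (42.7 CPM) and DMC1 (13.6 CPM), a meiotic recombinase, were highest per kilobase, and MAGEA1, MAGEA4, SSX1, SSX2 and GAGE1 were not detected. Of 12 trophoblast genes, TEAD4 (26.8 CPM) and GCM1 (1.13 CPM) reached 1 CPM.

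Laminins and nidogens are components of basement membranes. Of 16 genes in their list 14 (87.5%) reached 1 CPM, beside 66.4% of all protein-coding genes, with NID1 (183 CPM), LAMC1 (224 CPM) and LAMB1 (121 CPM) highest per kilobase. Collagens were led by COL6A1 (124 CPM), COL6A2 (74.6 CPM) and COL18A1 (69.1 CPM), with COL4A2 at 85.2 CPM, and the fibrillar genes COL1A1 and COL3A1 stood at 33.5 and 0.916 CPM. Secreted signals differed by family. BMP7, a kidney morphogen, was at 58.9 CPM, AMH, the hormone that regresses the Müllerian duct, at 30.4 CPM, WNT5A at 27.5 CPM and FGF9 at 14.1 CPM. Of the ligand lists, 6 of 22 FGF genes, 10 of 19 WNT genes and 20 of 33 genes of the TGF-beta family reached 1 CPM.

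Enzymes of drug metabolism were low. Of 55 cytochrome P450 genes 18 reached 1 CPM, and CYP2R1 and CYP27B1 of vitamin D activation (15.5 and 9.49 CPM) and CYP26A1 of retinoic acid breakdown (7.61 CPM) were highest per kilobase. CYP2C19 and CYP8B1 were not detected. None of 18 UDP-glucuronosyltransferases reached 1 CPM and 17 were not detected. Of these 18 genes 6 share 50% or more of their exon bases with a neighbour, so zeros among those 6 cannot be read as silence. Among the genes without such sharing, 11 were also not detected. Of the solute carriers 228 of 361 (63.2%) reached 1 CPM, near the 66.4% of all protein-coding genes, led per kilobase by the ADP/ATP carriers SLC25A5 (727 CPM) and SLC25A6 (832 CPM) and the zinc transporter SLC39A7 (201 CPM). Keratin-associated proteins and beta-defensins marked the silent end, with 1 of 91 and 0 of 37 genes at 1 CPM. The 1 gene was KRTAP19-1 (11.2 CPM). Of 502 zinc finger genes with ZNF names 400 (79.7%) reached 1 CPM, beside 66.4% of all protein-coding genes. Their median of 8.01 CPM lay under the 9.82 CPM of all. At 10 CPM there were 219 and at 100 CPM 8, both lower shares than the 49.8% and 9.31% of all.

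Long noncoding RNA genes held 1.56% of the reads, and 1178 of 13078 reached 1 CPM. The host genes of small nucleolar RNAs GAS5, SNHG1 and SNHG5 stood at 628.7, 301.9 and 271.8 CPM, C17orf76-AS1 at 443.4 CPM and LINC00657 at 320.8 CPM. The nuclear RNAs MALAT1 and NEAT1 were at 266.3 and 260.7 CPM. These noncoding genes were named after their values were seen.

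Detection calls recurred in the other libraries of the series. Of the 2753 protein-coding genes not detected in the control, 2466 (89.6%) also had 3 reads or fewer in the ADAR2 library of 132887974 reads, and 2524 (91.7%) in the library with both proteins, of 97875935 reads. Of the 12789 at 1 CPM, 12660 (98.99%) and 12642 (98.9%) reached it there too. For the 1793 genes at 100 CPM the shares were 94.1% and 91.0%. These libraries carry other transgenes and are not replicates of the control, so these counts show only how often a call was met again.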

How the data were processed

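RNA of the control cells was sequenced from total RNA purified with Trizol and prepared with a strand-marking NEBNext Ultra Directional kit, per the labels' protocols. Any step that enriched messenger RNA is not described. The submitters' processing notes list hg19 as the build, and STAR, Picard, GATK and SAMtools with no version. The deposited values are raw read counts, whole numbers for each gene. How reads were assigned to genes, and whether by strand, is not given in the sources used here, so reads of overlapping, antisense and near-identical genes may be mixed or split.

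CPM was computed from the plain total of 152878282 reads. Intervals are exact Poisson or Clopper-Pearson 95% intervals and cover counting error only. Gene types, lengths and exon overlaps came from GENCODE 29 on GRCh38, matched on the identifier for 51802 of 57268 genes. Since that build is not the authors', it gave no coordinates. Promoter windows came from RefSeq (GRCh38.p14), matched by symbol for 14603 protein-coding genes. Where a symbol had several rows (55 protein-coding symbols, 118 rows), the protein-coding row with the most reads was used. Genes of chromosome Y were left out of the lists.

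The members and lists were chosen with earlier results of these data known. The rule for named genes took the 20 genes with the highest CPM, the 3 members of each list highest per kilobase, members with 3 reads or fewer, and isotypes at 1 CPM or more. Some genes that the rule takes are not reported here. Genes outside it were named for their known roles with their values in view. The interval and threshold steps were tested on simulated Poisson counts. Alternatives were library sizes from edgeR 4.0.16 (TMM) and DESeq2 1.42.0 (R 4.3.3), other thresholds and other gene lengths. The remaining steps used Python 3.11.15, numpy 2.4.6, pandas 2.3.3, scipy 1.17.1 and matplotlib 3.10.9.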

Additional observations from a re-analysis of the deposited data

How the results depend on the processing

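The counts of protein-coding genes at 1 CPM, at 100 CPM and not detected were recomputed, as were those of the 4 groups at 1 CPM. Library sizes came from edgeR's TMM, from DESeq2's size factors and from the total without mitochondrial genes. All 21 such counts stayed within 1.5 times the reported one. The sizes were 154491134 by TMM and 155494244 by DESeq2 against 152878282, and mitochondrial genes held 6.85% of the reads. With sizes this close, a larger change was hardly possible. Counts of single lists and at 10 CPM were not recomputed. Over all alternatives 44 of 49 counts did so, with numbers and not shares compared. The count over all gene types (16129 of 57268 at 1 CPM) passed on this basis beside 12789 of 19263 protein-coding genes. The exceptions follow from how the alternative is built. The 1793 protein-coding genes at 100 CPM became 4031 at 50 CPM, 671 at 200 CPM and 285 when 100 was required per kilobase. Requiring 1 CPM per kilobase left 263 of the 396 receptor and channel genes and 88 of the 135 lineage markers. Counting 0 reads alone as not detected gave 1926 genes in place of 2753, and a limit of 10 reads gave 3786. Leaving out genes that share 50% or more of their exon bases with another gene on the same strand, an alternative chosen after the data were seen, left 2371 of 18563 genes not detected. The member highest per kilobase was the same in 125 of 145 lists with the longest transcript and in 88 of 145 with the median transcript length, so the order within a list is uncertain where members are close. No paired analysis was possible because the control is a single library and no test was made. Depth limits the statements on weak genes: at 1 CPM the counting interval reaches 17.2% above the value.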
